A study of Mus musculus with 224 samples.

Results

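Glucose enters mouse tissues through transporters of the Slc2a family, is broken down by glycolysis, and is stored as glycogen. The 37 genes described here code for 3 glucose transporters, hexokinases, the enzymes of glycolysis with their isoforms, the enzymes that set fructose 2,6-bisphosphate, lactate and glycerol 3-phosphate dehydrogenases, and the enzymes that build and degrade glycogen. They were chosen by name, by matching the Ensembl gene IDs of the tables to the listed symbols. The rule uses no measured value, but the list was drawn up with earlier results of these data known. Members made up 35 of the 12611 genes with liver values, 36 of 13637 in muscle and 37 of 16542 in adipose tissue, and 34 members had values in all 3 tissues. Pfkfb4 and Phkg1 had no row in liver, and Aldoc had none in muscle. All rows of members passed the filter on low values.

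Transcripts were sequenced in 3 tissues of the same mice (liver, the soleus muscle, and fat of the abdominal cavity, labelled visceral adipose). The mice were of the inbred strains C57Bl/6J, BALB/cJ and DBA/2J, the last written DBA/2JJ in the sample labels. They ate either regular chow (RC) or a diet high in fat (HFD) and were sampled at day 5, 13 or 33 (so the labels of the samples), whereas the series text gives the last day as 13. Each tissue thus had 18 groups of 4 animals, 72 animals in all. Age, sex, the diets' fat content and the exact fat depot are not stated in the labels, and no animal carried a transgene or other treatment by the labels. Levels are log2 CPM (reads per 1e+06 reads of the library, as scaled by the authors), and a fold change is HFD against RC, averaged over the 9 combinations of strain and day, unless another comparison is named. A gene was called higher or lower when its limma p was under 0.05 after Benjamini-Hochberg adjustment across every gene tested in that tissue. Libraries held 1.81e+07 to 3.34e+07 reads in liver and muscle and up to 4.68e+07 in adipose tissue.

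As background, the tissues use different transporters and isoforms for the same reactions. Skeletal muscle and fat take up glucose through Slc2a4 (GLUT4), which insulin brings to the cell surface, while hepatocytes use Slc2a2 (GLUT2), which carries glucose in both directions. Muscle burns its own glycogen during work, liver releases glucose from glycogen into the blood, and fat cells use glycolysis to make the glycerol 3-phosphate backbone of triglyceride. Fast muscle fibres rely more on glycogen and glycolysis than slow fibres, and the soleus of the mouse holds both.

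Promoters of 34 members were found in the RefSeq table (GRCm38.p6), with 53 listed starts. The 250 bases before the start were searched on both strands for the E-box CANNTG, for its form CACGTG, for ACGTG (the core of the site of hypoxia-inducible factors, which overlaps CACGTG) and for the core of the MEF2 site. The 4 promoters shown belong to members whose diet effect recurred across combinations below (Pygm, Gbe1 and Ldha) or differed between strains (Eno3), with CANNTG in capitals.
Pygm, chr19:6384158-6384407, plus strand: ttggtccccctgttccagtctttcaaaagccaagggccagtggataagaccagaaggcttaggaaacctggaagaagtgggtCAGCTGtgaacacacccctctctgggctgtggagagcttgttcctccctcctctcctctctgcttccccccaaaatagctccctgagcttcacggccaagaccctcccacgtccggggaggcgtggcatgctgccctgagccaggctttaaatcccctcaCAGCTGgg
Gbe1, chr16:70313699-70313948, plus strand: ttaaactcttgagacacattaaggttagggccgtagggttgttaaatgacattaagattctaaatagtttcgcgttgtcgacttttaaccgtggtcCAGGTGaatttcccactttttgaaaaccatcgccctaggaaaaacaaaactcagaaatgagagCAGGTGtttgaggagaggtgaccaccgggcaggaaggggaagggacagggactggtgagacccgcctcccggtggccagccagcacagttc
Eno3, chr11:70656926-70657175, plus strand: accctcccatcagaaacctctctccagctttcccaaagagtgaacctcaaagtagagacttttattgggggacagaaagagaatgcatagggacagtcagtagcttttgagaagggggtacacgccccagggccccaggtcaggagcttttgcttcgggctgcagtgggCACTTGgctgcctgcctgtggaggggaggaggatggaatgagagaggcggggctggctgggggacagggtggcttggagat
Ldha, chr7:46845554-46845803, plus strand: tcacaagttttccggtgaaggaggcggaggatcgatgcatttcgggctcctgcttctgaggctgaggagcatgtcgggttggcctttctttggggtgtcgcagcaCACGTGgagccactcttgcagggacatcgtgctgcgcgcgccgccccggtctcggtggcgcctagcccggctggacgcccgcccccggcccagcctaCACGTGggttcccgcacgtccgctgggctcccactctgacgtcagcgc
The Pygm promoter held CANNTG 168 and 8 bases before the start, and that of Gbe1 154 and 91 bases before it. Eno3 had 1 match, 81 bases before the start. The Ldha window was that of 1 of 2 listed starts and had both its E-boxes in the form CACGTG, 145 and 48 bases before the start. It had 5 matches of ACGTG counted over both strands, where each CACGTG matches on both. Across members, CANNTG was in 35 of 53 windows (66%), against 66.2% of all 32851 RefSeq windows of this length. CACGTG was in 4 (7.55%, against 6.02%), the MEF2 core in 2 (3.77%, against 3.2%) and ACGTG in 19 (35.8%, against 16.6%). These are counts of letters, and starts of 1 gene overlap.

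Several libraries stood apart before any comparison. The muscle library of animal 1RC210 (C57Bl/6J, RC, day 33) was left out by the rule that defined the members, since its fast minus slow fibre marker level was 8.45 against -1.49 to 0.77 in the other 71 libraries. In adipose tissue, 2 libraries of BALB/cJ mice on HFD (3HF201 at day 5 and 3HF208 at day 33) had endocrine pancreas transcripts. Their Ins2 stood at 17.81 and 18.39, against at most 8.19 in the others, and Adipoq, a defining adipocyte gene, at 2.79 and 3.61 against at least 9.12. Slc2a2, the glucose transporter also used by pancreatic beta cells, stood at 10.55 and 10.29 in them and at most 3.42 elsewhere, so adipose results are given with all 72 libraries and without these 2. Adipose libraries also fell into 32 with a low mean of 7 B cell markers (at most 3.88) and 40 with a high one (at least 6.15), 17 and 19 of them on HFD. Hepatocyte markers (Alb, Apoa1 and others) averaged 9.23, 8.57 and 7.96 in 3 muscle libraries on RC, against a median of 1.6 and a highest value of 7.94 in the others, so no gap sets the third of them apart, and 13.07 in liver. In these bulk samples fewer cells of a type and less RNA per cell cannot be told apart.

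The isoform that led each step on RC differed between tissues. Per kb of exon, Slc2a2 made up a median of 95.7% of the 3 transporters in liver, and Slc2a4 97.0% in muscle and 88.4% in adipose tissue. Glycogen phosphorylase was 98.4% Pygl in liver and 99.2% Pygm in muscle, while adipose tissue had 58.6% Pygl and 36.2% Pygb. Glycogen synthase was 99.3% Gys2 in liver and 99.9% Gys1 in muscle, and adipose tissue held 74.3% Gys1 beside 25.7% Gys2. Phosphoglycerate mutase (98.6% Pgam1 in liver, 99.6% Pgam2 in muscle) and enolase (94.6% Eno1 in liver, 99.3% Eno3 in muscle) followed the same division. The tables were normalized separately, so tissues were set side by side with no test.

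Some steps had no single leading gene. Per kb, liver phosphofructokinase was shared by Pfkl (51%) and Pfkm (48.5%), whereas muscle had 99.4% Pfkm. The length used merges all annotated exons of a gene, and the liver split depends on it. Before division by length, Pfkl was above Pfkm in liver on RC (median log2 CPM 5.39 and 4.28). Lactate dehydrogenase was 99.4% Ldha in liver and 90.4% in adipose tissue, but 71.9% Ldhb, the form typical of oxidative muscle, in soleus. Of the enzymes that set fructose 2,6-bisphosphate, an activator of phosphofructokinase, Pfkfb1 led in liver (60.4%) and muscle (56.1%) and Pfkfb3 in adipose tissue (83.1%). Hexokinase was mostly Hk2 in muscle (97.6%) and Hk1 in liver (72.7%), where both were scarce (medians of 0.0912 CPM per kb for Hk2 and 0.238 for Hk1). The highest member per kb on RC was Aldoa, an aldolase, in muscle (median 1810 CPM per kb) and adipose tissue (491 CPM per kb), and Ldha in liver (191 CPM per kb).

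**Figure D1:**
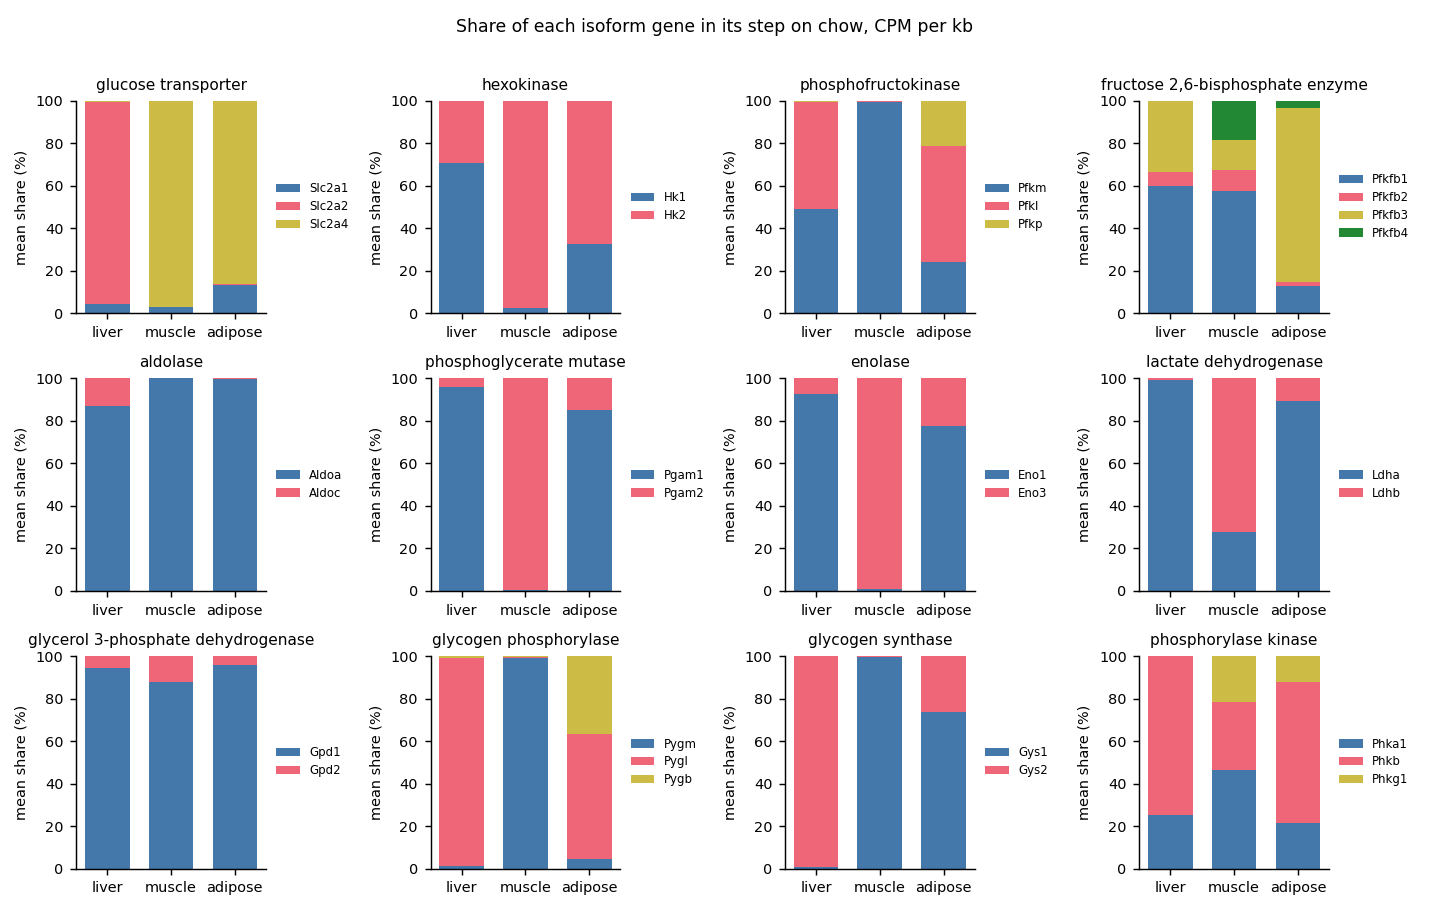
Mean share of each gene in its step on RC, in percent of summed CPM per kb of exon, as stacked bars for liver, muscle and adipose tissue. Phka1, Phkb and Phkg1 are subunits of the same kinase, and Gpd1 and Gpd2 are a cytosolic and a mitochondrial enzyme, so their bars are not shares of isoforms. Liver bars are mostly Slc2a2, Pygl and Gys2, muscle bars Slc2a4, Pygm and Gys1, and adipose tissue mixes Pygl with Pygb and Gys1 with Gys2.

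The first question was which members differed between HFD and RC in soleus muscle. On HFD, 18 of 36 members were called, 16 lower and 2 higher (50%), beside 17.4% of all genes tested. The median log2 fold change of the members was -0.10, against 0.00 for all genes, and 27 of 36 estimates were below 0. Lower members came from glucose uptake, upper and lower glycolysis, and both making and breaking of glycogen. Effects were small, none of the called ones beyond -0.33, and no called member had groups that separated without overlap within a strain.

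Among glucose transporters in muscle, Slc2a4 (ENSMUSG00000018566.14, GRCm38 chromosome 11, 69942539 to 69948188) ran from 8.97 through a median of 9.14 to 9.49 on RC, and from 8.61 through 9.0 to 9.41 on HFD. The groups overlapped, but all 12 C57Bl/6J and all 12 BALB/cJ animals on HFD, and 11 of 12 DBA/2J animals, were under the RC median of their strain. The log2 fold change was -0.18 ± 0.02 (SE, adjusted p = 5.85e-08), and it was -0.19 in BALB/cJ, -0.18 in DBA/2J and -0.17 in C57Bl/6J, where it was called each time. Slc2a1 (GLUT1), the widespread basal transporter, differed by 0.04 (95% interval -0.09 to 0.18). Slc2a2 had a median of -0.66 on RC and -1.72 on HFD, with libraries at 0 reads on both diets, and was not called. The hexokinase Hk2, which traps glucose in the muscle cell, differed by -0.03 (95% interval -0.15 to 0.08).

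In upper glycolysis of muscle 3 of 6 members were lower and 2 higher. Aldoa, which splits fructose 1,6-bisphosphate, ran from 11.98 through 12.37 to 12.75 on RC and from 11.68 through 12.19 to 12.63 on HFD (log2 fold change -0.21, adjusted p = 9.25e-05). Gpi1 (-0.10), glucose 6-phosphate isomerase, and Pfkm (-0.10), the muscle phosphofructokinase, were also lower. The 2 higher members were the minor phosphofructokinase genes Pfkl and Pfkp. Pfkl ran from 3.64 through 3.98 to 4.21 on RC and from 3.24 through 4.16 to 5.14 on HFD (0.21, adjusted p = 0.00206), and Pfkp was higher by the same 0.21 (adjusted p = 0.0259). All BALB/cJ animals on HFD were above the RC median of Pfkl, and 8 of 12 above its highest RC animal. Pfkl and Pfkp together made up under 1% of phosphofructokinase in muscle on RC (medians of 0.412% and 0.133%).

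In lower glycolysis of muscle 4 of 7 members were lower and none higher. Gapdh (ENSMUSG00000057666.18, chromosome 6, 125161715 to 125166467), which oxidises glyceraldehyde 3-phosphate and is often used as a reference gene, ran from 9.97 through 10.28 to 10.75 on RC. On HFD it ran from 9.51 through 10.05 to 10.48, and its mean was lower in all 9 combinations of strain and day (-0.23 ± 0.03 SE, adjusted p = 5.85e-08). Eno3, the muscle enolase, ran from 10.3 through 10.84 to 11.43 on RC and from 9.86 through 10.63 to 11.17 on HFD (-0.19, adjusted p = 0.00025). Pkm (-0.15, adjusted p = 0.00186), pyruvate kinase, and Pgk1 (-0.08), phosphoglycerate kinase, were lower too. Pgam2, the muscle phosphoglycerate mutase, differed by less (0.03, 95% interval -0.07 to 0.14). Ldha (-0.09, adjusted p = 0.0565) and Ldhb (-0.06) were not called. Reads of Eno1, Aldoa, Tpi1, Gapdh, Pgam1, Pkm and Ldha may be shared with near-identical copies or pseudogenes.

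Among the enzymes that set fructose 2,6-bisphosphate, only Pfkfb4 was called over all strains in muscle. It ran from 3.07 through 3.88 to 4.43 on RC and from 2.91 through 3.67 to 4.13 on HFD (-0.29, adjusted p = 9.71e-05). Both glycerol 3-phosphate dehydrogenases, which shuttle reducing equivalents into mitochondria, were lower in all 9 combinations, Gpd1 by -0.33 (adjusted p = 0.000702) and Gpd2 by -0.20.

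Of the glycogen genes in muscle, 3 of 6 for breakdown and 2 of 4 for synthesis were lower and none was higher. Pygm (ENSMUSG00000032648.14, chromosome 19, 6384399 to 6398459), the muscle glycogen phosphorylase, ran from 10.87 through 11.28 to 11.69 on RC and from 10.76 through 11.11 to 11.62 on HFD (-0.20, adjusted p = 3.72e-05). In BALB/cJ 8 of 12 HFD animals were below the lowest RC animal. Of the subunits of the kinase that switches phosphorylase on, Phkg1, the catalytic one, was lower by -0.28 (adjusted p = 0.00138) and Phkb by -0.12, while Phka1 (-0.07) was not called. Gbe1, the branching enzyme (ENSMUSG00000022707.16, chromosome 16, 70313949 to 70569716), ran from 7.03 through 7.53 to 7.9 on RC and from 6.83 through 7.28 to 7.72 on HFD (-0.18, adjusted p = 3.78e-06). Gys1, glycogen synthase, was lower by -0.08, and Ugp2, which makes its substrate, was not called (0.08). The phosphorylase Pygb was not called either (0.16, adjusted p = 0.0555), with an HFD mean under RC in 1 of 9 combinations, nor were Pygl (-0.39) and Gys2 (-0.72). Gbe1, Pygm, Gpd1, Gpd2, Phkb and Gapdh had a lower HFD mean in all 9 combinations.

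**Figure D2:**
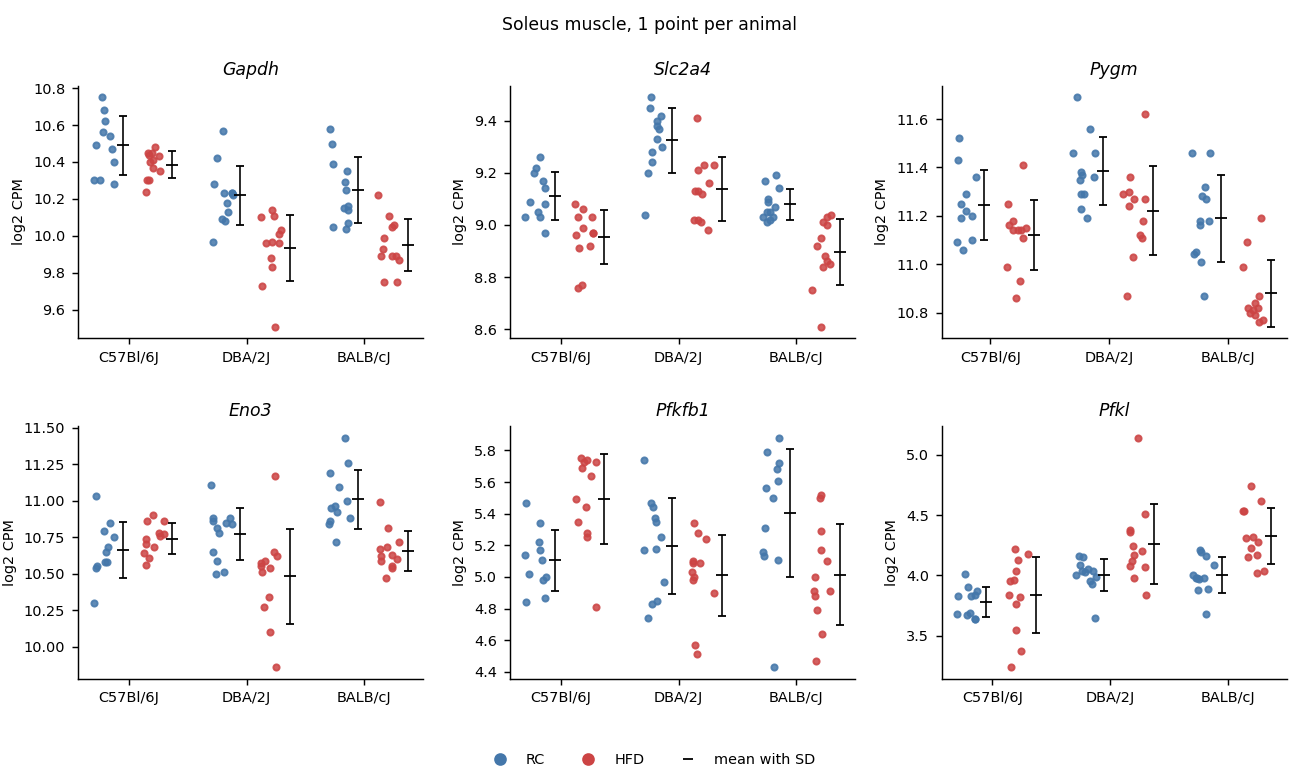
Levels of 6 genes in soleus muscle (log2 CPM), 1 point per animal, RC in blue and HFD in red by strain, with the mean and SD beside each group. Slc2a4, Gapdh and Pygm sit lower on HFD in each strain, Eno3 does so in DBA/2J and BALB/cJ, Pfkfb1 is higher on HFD in C57Bl/6J and lower in BALB/cJ, and Pfkl has its highest animals on HFD.

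Fibre type markers moved with part of these genes in muscle. Of 12 fast fibre markers 6 were lower on HFD (Myh1, Tnni2, Mylpf, Myl1, Atp2a1 and Casq1) and of 10 slow ones 0. The fast markers summed to between 25900 and 49800 CPM on RC and between 21700 and 54200 CPM on HFD. The mean of fast minus slow markers was -0.40 ± 0.52 (SD, n = 35) on RC and -0.60 ± 0.54 (SD, n = 36) on HFD. With the group means removed, 14 of 36 members varied with this difference across 71 animals (permutation test, two-sided, adjusted over the 36 relations), 13 of them upwards. The relation was computed for members only, so without the share of all genes this count is not read as a trait of the members. Gpd2 had r = 0.74 (rho = 0.68), Phkb r = 0.70 (rho = 0.64), Phkg1 r = 0.67 (rho = 0.61) and Pygm r = 0.53 (rho = 0.43). The permutation p of r was 1e-05 for each, the smallest possible here, and without the 2 animals farthest from the median r was 0.67, 0.63, 0.58 and 0.45. Slc2a4 (r = -0.01, permutation p = 0.94) and Gbe1 (r = -0.04, permutation p = 0.76) had no such relation past the threshold. With the fibre difference as a covariate 12 members remained of the 18 (13% of all genes called). Slc2a4 (-0.18), Gbe1 (-0.19) and Gapdh (-0.21) were among them, and Pfkm, Pfkp, Pgk1, Gpd2, Gys1 and Phkb were not.

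Markers of blood and of other cells also differed in muscle: all 5 erythroid markers were lower on HFD (summed 160 to 928 CPM on RC, 129 to 528 CPM on HFD), and 4 of 7 B cell markers were higher, at sums of at most 74.0 CPM. Of 6 adipocyte markers 3 were higher (median log2 fold change 0.44, sums of 237 to 883 CPM on RC and 366 to 1820 CPM on HFD), as were 3 of 4 endothelial markers (median 0.16), and of 6 general muscle markers 4 were lower (median -0.19). Their part in the members' differences was not tested. Without the 3 libraries with most hepatocyte transcripts 19 members were called, 17 lower (17.3% of all genes). The animals' numbers fall into a lower, a middle and an upper range, whose meaning the labels do not give, and 6, 7 and 1 members were called within them (8.26%, 7.79% and 1.2% of all genes), each with fewer animals. Of the 18 members called over all animals, 6, 3 and 1 were called again there, and 18, 16 and 16 kept their sign. Those 18 were chosen on the same animals, so the kept signs are no independent support.

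Within strains, muscle calls were 3 of 36 members in C57Bl/6J (4.77% of all genes), 13 in DBA/2J (11.7%) and 17 in BALB/cJ (14.7%). With the left-out C57Bl/6J library, which then enters the spread shared by all groups, DBA/2J had 3 (8.73%) and BALB/cJ 8 (11.5%), and with the fibre covariate DBA/2J had 8 (9.09%). In C57Bl/6J the called members were Slc2a4 (-0.17), Pfkfb3 (-0.58), an inducible isoform, and Pfkfb1 (0.37). DBA/2J led with Gapdh (-0.28), Slc2a4 (-0.18) and Eno3 (-0.29), and BALB/cJ with Gapdh (-0.30), Eno3 (-0.35) and Pygm (-0.31).

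In muscle, strains differed in their response to HFD for 4 of 36 members (12% of all genes). These were Pfkfb1 (adjusted p = 0.000774), Eno3 (adjusted p = 0.0033), Pgk1 (adjusted p = 0.0102) and Tpi1 (adjusted p = 0.0119), all by limma's F test. For Pfkfb1, an enzyme that makes and removes fructose 2,6-bisphosphate, C57Bl/6J animals at day 5 stood at 4.98, 5.02, 5.11 and 5.14 on RC and at 5.64, 5.69, 5.74 and 5.75 on HFD, with no overlap. BALB/cJ animals at day 33 stood at 5.31, 5.68, 5.79 and 5.88 on RC and at 4.79, 4.91, 5.17 and 5.5 on HFD, which overlapped. Over days, Pfkfb1 was higher by 0.37 in C57Bl/6J and lower in BALB/cJ (-0.39), both called, and DBA/2J lay at means of 5.2 ± 0.3 (SD, n = 12) on RC and 5.01 ± 0.25 on HFD. Eno3 was lower in DBA/2J and BALB/cJ, whereas C57Bl/6J medians were 10.65 on RC and 10.75 on HFD. Tpi1, triose phosphate isomerase, had medians of 9.41 and 9.56 in C57Bl/6J and of 9.61 and 9.45 in BALB/cJ, on RC and HFD, and Pgk1 showed the same order (7.12 and 7.23, 7.37 and 7.23). The count was 8 without 2HF201 or 3RC259, animals of DBA/2J on HFD and BALB/cJ on RC, and 7 without 2RC211 or 3RC230. With the left-out C57Bl/6J library included, it was 1.

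By day, muscle calls were 2 of 36 at day 5 (1.48% of all genes), 3 at day 13 (4.95%) and 16 at day 33 (13.1%). Day 33 was led by Gapdh (-0.30), Slc2a4 (-0.22) and Pfkfb4 (-0.49). The difference of the diet effect between days was called for 0 of 36 members (1.12% of all genes), with 10 at an unadjusted p under 0.05 and 0 by voom, so an increase with time was not shown. It was 1 without 2RC203 or 3RC251, RC animals of DBA/2J and BALB/cJ at day 5.

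Other genes of the pathway that were not members were examined as lists. Of 14 further glycolysis and gluconeogenesis genes measured in muscle, 1 was called, the gluconeogenic Fbp2 (0.84, adjusted p = 1.48e-09), which was higher. Of 17 genes of glucose transport 1 rose and 3 fell: Tbc1d4, which restrains GLUT4 vesicles (0.31), and Slc2a8 (-0.19), Txnip (-0.54), an inhibitor of glucose uptake, and Rab10 (-0.10). Of 19 further glycogen genes 3 fell, Gyg, the primer of glycogen (-0.15), and the phosphatase targeting subunits Ppp1r3a (-0.18) and Ppp1r3b (-0.56). Of 7 pyruvate and lactate transport genes Slc16a3 fell (-0.36) and Slc16a1 rose (0.14), and of 14 regulators Mlxip rose (0.25).

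**Figure D3:**
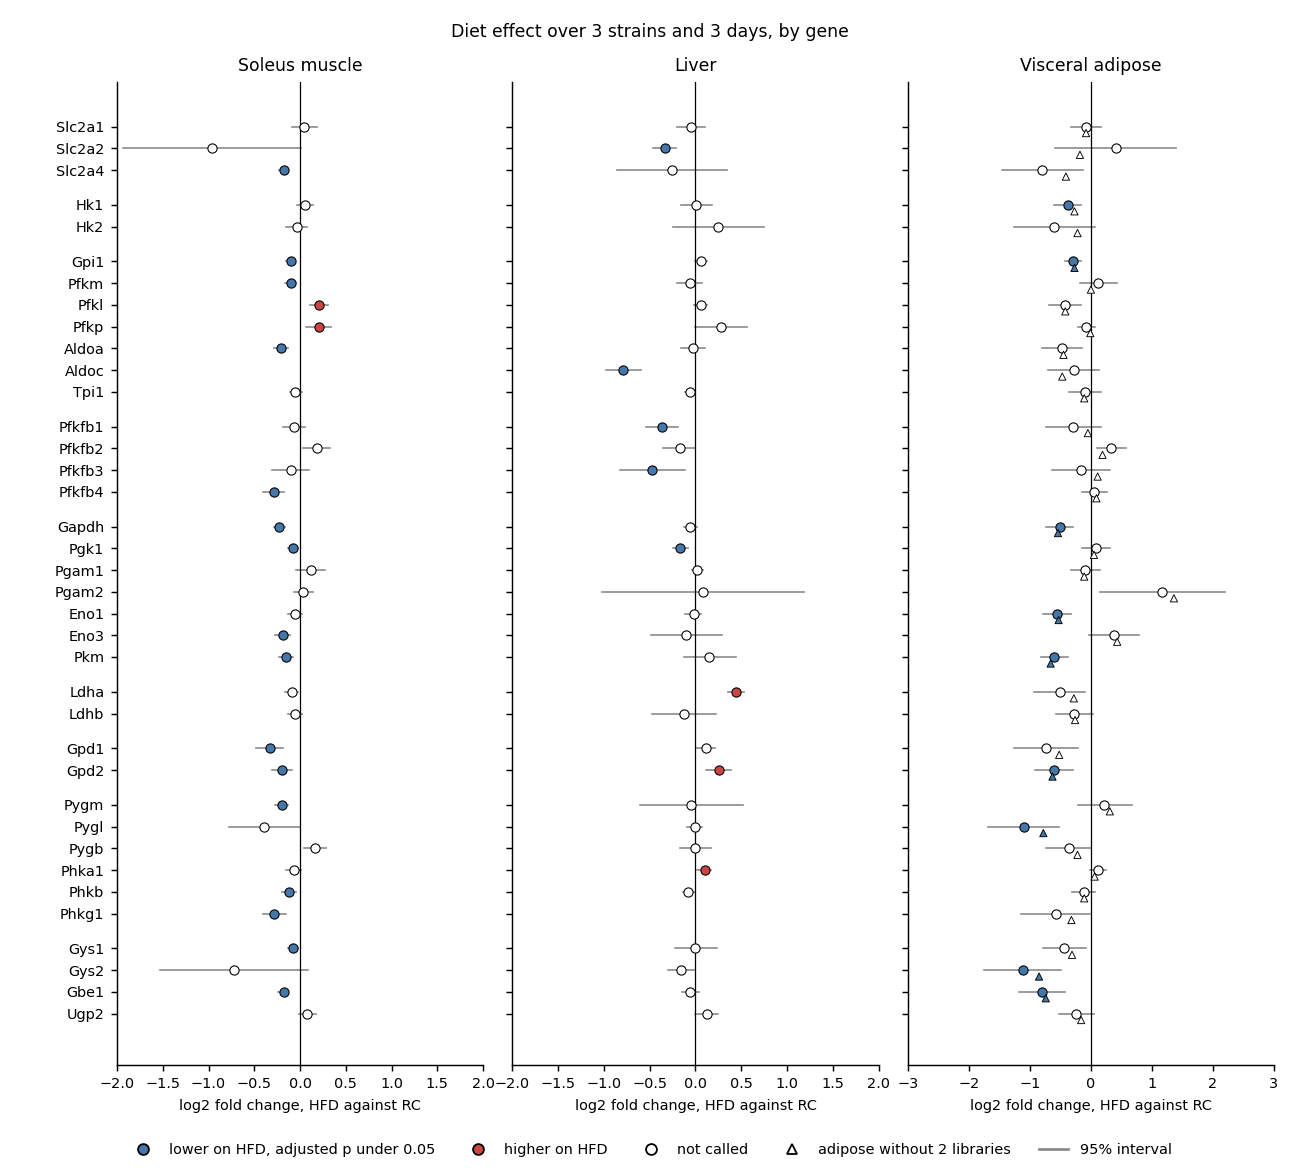
Log2 fold change of each member on HFD against RC over strains and days (x axis, with 95% intervals) in muscle, liver and adipose tissue. Filled blue points are called lower, filled red ones higher and open ones not called, and in adipose tissue triangles give the values without 2 libraries; muscle has 16 blue and 2 red points, liver 5 and 3, and adipose tissue 9 blue circles and 8 blue triangles.

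In liver, 8 of 35 members were called on HFD, 5 lower and 3 higher (22.9%), a share close to the 21.2% of all genes, so the count says nothing particular about these genes. The median log2 fold change was -0.03, against 0.01 for all genes. Ldha (ENSMUSG00000063229.15, chromosome 7, 46841475 to 46855627), which interconverts pyruvate and lactate, ran from 8.59 through 9.3 to 9.74 on RC and from 9.09 through 9.61 to 11 on HFD. Its mean was higher on HFD in all 9 combinations (0.44 ± 0.04 SE, adjusted p = 2.25e-11). In DBA/2J the groups did not overlap: RC animals lay between 8.59 and 9.02 and HFD animals between 9.09 and 9.6. In C57Bl/6J 7 of 12 and in BALB/cJ 6 of 12 HFD animals were above the highest RC animal.

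Aldoc, a minor aldolase of liver, was lower. It ran from 3.01 through 4.11 to 4.72 on RC and from 1.32 through 3.15 to 4.49 on HFD (-0.79 ± 0.10 SE, adjusted p = 4.71e-09), a level well below that of Aldoa. In DBA/2J and BALB/cJ 10 of 12 HFD animals were below the lowest RC animal, in C57Bl/6J 2 of 12. Slc2a2 (ENSMUSG00000027690.13, chromosome 3, 28697903 to 28731359), the hepatocyte transporter, ran from 8.18 through 8.83 to 9.23 on RC and from 7.59 through 8.41 to 9.02 on HFD (-0.33, adjusted p = 5.35e-05). In DBA/2J 11 of 12 HFD animals were below the lowest RC animal of Slc2a2 (-0.58), and C57Bl/6J medians were 8.63 and 8.47.

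Of the genes of fructose 2,6-bisphosphate control, Pfkfb1 and Pfkfb3 were lower in liver. Pfkfb1, the liver isoform that glucagon switches by phosphorylation, ran from 4.51 through 5.58 to 6.41 on RC and from 3.77 through 5.27 to 6.49 on HFD (-0.37, adjusted p = 0.00122). Pfkfb3 was lower by -0.47 (adjusted p = 0.0482), a call lost when any 1 of 46 animals was left out. Gpd2, the mitochondrial glycerol 3-phosphate dehydrogenase, was higher (0.26, adjusted p = 0.00346), with medians of 5.78 on RC and 6.06 on HFD. Pgk1 was lower (-0.17) in all 9 combinations, and Phka1 was higher (0.10, adjusted p = 0.0491), a call lost without any 1 of 45 animals. No glycogen synthase, phosphorylase or branching enzyme gene was called over all strains: Pygl differed by -0.01 (95% interval -0.09 to 0.07), Gys2, the liver synthase, by -0.16 (adjusted p = 0.089) and Gbe1 by -0.06. Within DBA/2J, Gys2 was called lower (-0.41). By animal number, 10, 0 and 3 members were called in the lower, middle and upper range, each with fewer animals (24.3%, 0.944% and 1.75% of all genes). Of the 8 members called over all animals, 6, 0 and 3 were called again there, and 8, 7 and 7 kept their sign. Pfkfb3 had the opposite sign in the middle and upper ranges (0.526 and 0.117). Those 8 were chosen on the same animals, so the kept signs are no independent support.

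**Figure D4:**
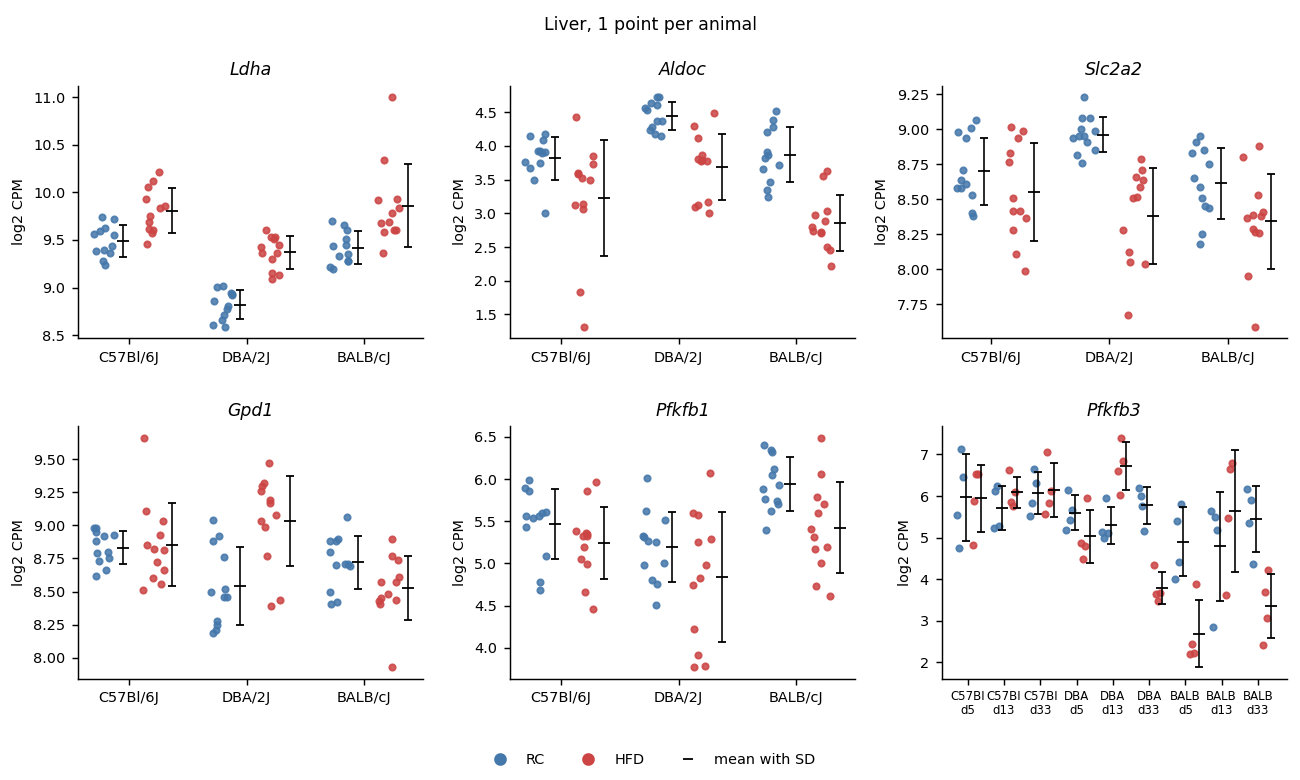
Levels of 6 genes in liver (log2 CPM), 1 point per animal, RC in blue and HFD in red, by strain and, for Pfkfb3, by strain and day, with the mean and SD. Ldha is higher on HFD in each strain, without overlap in DBA/2J, and Aldoc is lower; Gpd1 is higher on HFD in DBA/2J, and Pfkfb3 changes order with day.

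Within strains, liver calls were 3 of 35 in C57Bl/6J (2.31% of all genes), 6 in DBA/2J (21.6%) and 4 in BALB/cJ (14.8%). Ldha and Aldoc were called in each strain (Ldha 0.32, 0.55 and 0.44, Aldoc -0.59, -0.76 and -1.02 in that order). The C57Bl/6J count was 1 without any 1 of 11 animals (1HF231, 1HF249, 1HF250, 1HF258, 1HF259, 1RC210, 1RC226, 1RC227, 1RC228, 1RC235 and 1RC254), and the BALB/cJ count was 7 without the HFD animal 3HF224 of day 5. By day the counts were 3 at day 5 (6.48%), 2 at day 13 (2.05%) and 9 at day 33 (16.3%), and at day 33 Gys2 (-0.39) and Gpd1 (0.29) were called as well.

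The diet effect in liver differed between strains for 1 member, Gpd1 (adjusted p = 0.000169 by limma's F test, 15.7% of all genes called). This cytosolic glycerol 3-phosphate dehydrogenase links glycolysis to triglyceride synthesis. In DBA/2J at day 33 the RC animals stood at 8.19, 8.21, 8.25 and 8.28 and the HFD animals at 8.99, 9.19, 9.26 and 9.3, with no overlap (0.95, adjusted p = 4.84e-06). Over days Gpd1 was called in DBA/2J (0.49), whereas medians were 8.84 and 8.82 in C57Bl/6J and 8.71 and 8.52 in BALB/cJ on RC and HFD. A second member passed without any 1 of 10 animals, namely 1HF225, 1HF259, 1RC248, 2HF211, 3HF203, 3HF224, 3HF252, 3HF254, 3RC230 and 3RC259.

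The diet effect in liver differed between days for 1 member, Pfkfb3 (adjusted p = 0.00229 by limma's F test, 3.35% of all genes called). It differed by -0.94 at day 5 and -1.34 at day 33, both called, and by 0.88 at day 13 (adjusted p = 0.133), where the HFD mean was above RC in all 3 strains. In DBA/2J at day 13 the RC animals stood at 4.99, 5.1, 5.14 and 5.96 and the HFD animals at 6.03, 6.61, 6.85 and 7.4. At day 33 they stood at 5.15, 5.75, 5.99 and 6.2 on RC and at 3.47, 3.64, 3.67 and 4.34 on HFD. Neither pair of groups overlapped, and the order of the diets was opposite. C57Bl/6J did not show this order: at day 33 its RC animals lay between 5.51 and 6.65 and its HFD animals between 5.56 and 7.07. A second member passed without 1HF209, 1RC227 or 3HF202.

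Of 13 further glycolysis and gluconeogenesis genes measured in liver, Bpgm rose (0.16) and Pklr (-0.46, adjusted p = 0.000206), the liver pyruvate kinase, and Minpp1 (-0.12) fell. Of 15 glucose transport genes 2 rose (Stx4a 0.17, Tbc1d4 0.25) and 2 fell (Slc2a8 -0.20, Txnip -0.69). Of 17 glycogen genes Nhlrc1 rose (0.24), of 5 pyruvate and lactate transport genes Slc16a7 fell (-0.24), and of 11 regulators Ppargc1a, a coactivator of gluconeogenesis, fell (-0.42). Of 6 hepatocyte markers 3 were lower in liver on HFD, with a median of -0.14. Of 5 erythroid markers 3 were lower. Their part in the members' differences was not tested.

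In visceral adipose tissue all called members were lower on HFD: 9 of 37 with all 72 libraries (24.3%, against 2.67% of all genes) and 8 of 37 without the 2 libraries with endocrine pancreas transcripts (21.6%, against 3.59%). The median log2 fold change of the members was -0.29 and -0.22, against 0.00 and 0.01 for all genes. The 8 genes without the 2 libraries were Pkm, Gapdh, Gpi1, Eno1, Pygl, Gpd2, Gbe1 and Gys2. Hk1, a hexokinase, was the ninth with all libraries (-0.38, adjusted p = 0.0439) and had -0.27 (adjusted p = 0.0525) without the 2.

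Pkm (ENSMUSG00000032294.17, chromosome 9, 59656368 to 59679375), pyruvate kinase, ran from 8.27 through 9.07 to 10.67 on RC and, without the 2 libraries, from 7.9 through 8.4 to 9.93 on HFD. The groups overlapped, with all 12 C57Bl/6J, 11 of 12 DBA/2J and 8 of 10 BALB/cJ animals on HFD under the RC median of their strain. The log2 fold change was -0.66 (adjusted p = 3.73e-05), and -0.60 (adjusted p = 0.000478) with all libraries. In DBA/2J at day 33 RC animals stood at 9.54, 10.21, 10.22 and 10.67 and HFD animals at 8.21, 8.41, 8.71 and 8.79, with no overlap.

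With Pkm, 3 of 7 members of lower glycolysis and 1 of 7 of upper glycolysis were lower in adipose tissue, with and without the 2 libraries, and none was higher. Gapdh ran from 7.33 through 8.38 to 9.31 on RC and from 7.0 through 7.73 to 9.14 on HFD (-0.54 without and -0.51 with the 2 libraries, adjusted p = 0.00165 and 0.00438). Eno1, the enolase of most tissues, ran from 6.9 through 8.05 to 9.19 on RC and from 6.5 through 7.5 to 8.88 on HFD (-0.53 and -0.55, adjusted p = 0.00257 and 0.00236). Gpi1 was lower by -0.27 and -0.29. Among those not called, Aldoa (-0.45 without the 2 libraries), Tpi1 (-0.11) and Pgam1 (-0.11) were below 0, and Pgk1 (0.05), Eno3 (0.43) and Pgam2 (1.36) above it. Pkm, Gapdh, Eno1 and Gpi1 had a lower HFD mean in all 9 combinations, with and without the 2 libraries.

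Of the glycogen genes in adipose tissue, 1 of 6 for breakdown and 2 of 4 for synthesis were lower, with and without the 2 libraries, and none was higher. Pygl, the liver form of phosphorylase, ran from 7.38 through 8.9 to 10.63 on RC and from 6.4 through 8.18 to 10.23 on HFD (-0.78 without the 2 libraries and -1.10 with them, adjusted p = 0.0102 and 0.0249). Gbe1 ran from 5.55 through 7.09 to 8.06 on RC and from 4.97 through 6.21 to 8.2 on HFD (-0.74 and -0.80, adjusted p = 0.0132 and 0.0106). Gys2 ran from 1.28 through 4.65 to 6.18 on RC and from 0.43 through 3.76 to 6.46 on HFD (-0.85 and -1.12, adjusted p = 0.0476 and 0.0356). Not called, without the 2 libraries, were Gys1 (-0.31), Ugp2 (-0.16), Pygb (-0.22), Phkg1 (-0.32), Phkb (-0.11), Phka1 (0.06) and Pygm (0.31). Gpd2, of the glycerol 3-phosphate pair, was lower by -0.63 and -0.60. The insulin-responsive transporter Slc2a4 was not called: its medians were 7.39 on RC and 6.98 on HFD (-0.41 without the 2 libraries, adjusted p = 0.271, and -0.80 with them, adjusted p = 0.214).

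**Figure D5:**
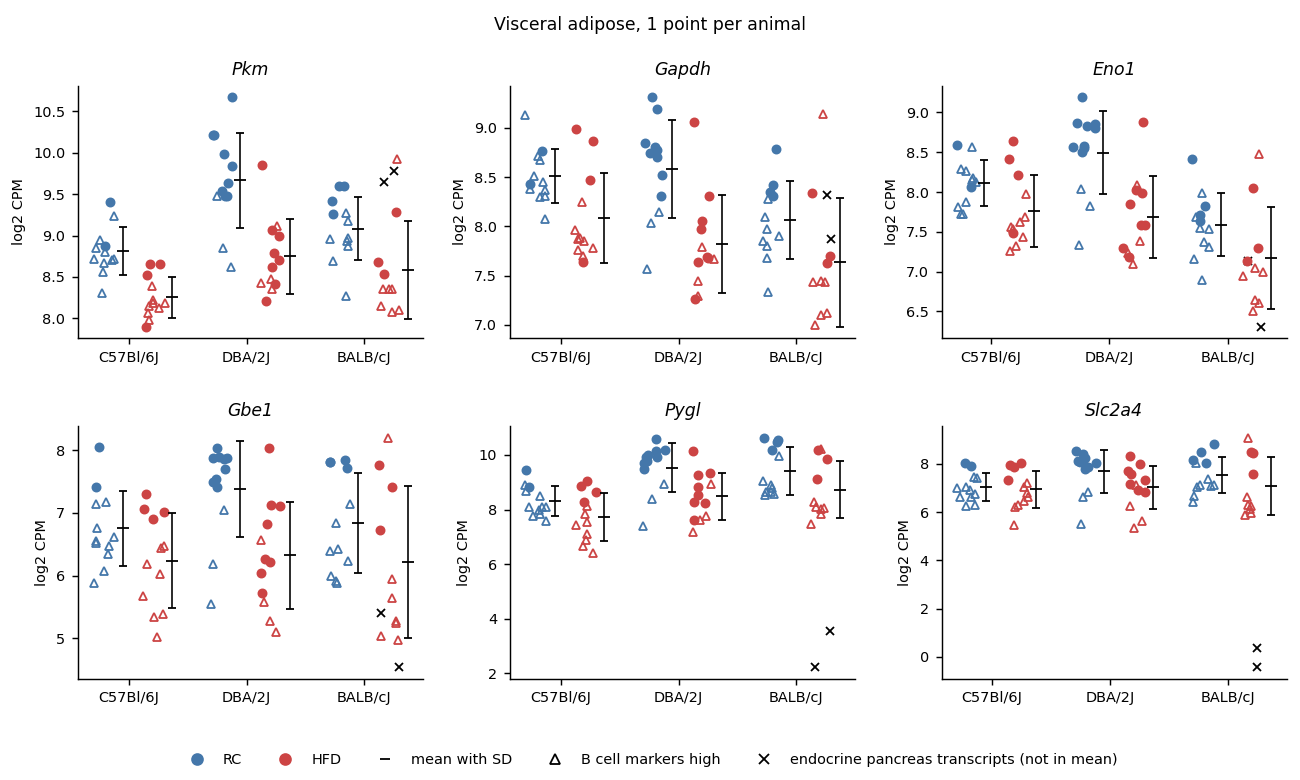
Levels of 6 genes in visceral adipose tissue (log2 CPM), 1 point per animal, RC in blue and HFD in red by strain, with the mean and SD. Triangles are libraries with high B cell markers and crosses the 2 with endocrine pancreas transcripts, which are not in the means; Pkm, Gapdh and Eno1 have lower HFD means in each strain, and Slc2a4 groups overlap widely.

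The adipose difference was examined within the 2 classes of B cell markers, without the 2 endocrine libraries. Within 24 libraries with low markers 9 members were lower (5.26% of all genes), led by Gbe1 (-0.68) and Pkm (-0.80). Within 40 libraries with high markers 0 members were called by limma (4.77% of all genes), with 10 at an unadjusted p under 0.05. The 8 members called over all 70 libraries were below 0 in both classes, and Pkm stood at -0.39 (adjusted p = 0.0581) in the second. Those 8 were chosen on the same libraries, so their signs within the classes are no independent support. With the B cell mean as a covariate 20 members were called without the 2 libraries, 17 lower and 3 higher (17.3% of all genes), and 15 with them (11.9%). Adipocyte markers summed to between 4800 and 42700 CPM on RC and between 4280 and 37700 CPM on HFD without the 2 libraries, and none of 6 was called. By animal number 7 (5 lower, 2 higher), 0 and 0 members were called by limma in the lower, middle and upper range, each with fewer animals (8.28%, 0% and 0.00605% of all genes). Of the 9 members called over the 72 libraries, 3 were called again in the lower range, and all 9 kept their sign in each range. Those 9 were chosen on the same animals, so the kept signs are no independent support.

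Within strains, adipose calls were 0 of 37 in C57Bl/6J (0.115% of all genes, 5 members at an unadjusted p under 0.05, 0 by voom), 2 in DBA/2J (0.411%) and 0 in BALB/cJ (0.435%, 18 unadjusted, 0 by voom). Without the 2 libraries the counts were 0 (0.236%), 3 (1%) and 0 (0%). The DBA/2J members were Pkm (-0.92), Eno1 (-0.81) and, without the 2 libraries, Gapdh (-0.76). Leaving out single animals gave 1 to 4 in DBA/2J, moved by any 1 of 16 animals, and was 4 without 2HF203. In BALB/cJ it gave 10 or 11 without 3HF202 or 3HF224, 2 without 3HF258, and 1 without 3HF254 or 3HF259. In BALB/cJ at day 33, 14 members were called lower with all libraries (10.7%), and 0 without 3HF208 and 3HF201 (1.81%).

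By day, 8 adipose members were called at day 33 with all libraries (1.51% of all genes) and 9 without the 2 (2.82%), against 0 at day 5 and 0 at day 13 by limma. For these 2 days 0% of all genes were called with all libraries (5 and 4 members at an unadjusted p under 0.05), and 0% and 0.0786% without the 2 (2 and 5 members). Of the 9, Pgam2, the muscle phosphoglycerate mutase, was higher (3.94), and the other 8 were lower. Fast fibre markers also rose in that comparison, 8 of 12 (median 3.47), and sums of 6 muscle markers in adipose tissue ran from 9.26 to 1780 CPM on RC and from 12.5 to 2640 CPM on HFD. Their part in the Pgam2 difference was not tested. The diet effect differed between strains for 0 of 37 members (0.0846% of all genes, 3 unadjusted) and between days for 0 (0%, 1 unadjusted), 0 each by voom, so the strains and days were not shown to differ.

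Of 19 glucose transport genes measured in adipose tissue without the 2 libraries, Slc2a5, a fructose transporter, fell by 2.53 on the log2 scale (adjusted p = 9.48e-07). Of 19 glycogen genes Gsk3a fell (-0.20), of 7 pyruvate and lactate transport genes Mpc1, a subunit of the mitochondrial pyruvate carrier, fell (-0.77), and of 15 glycolysis genes and 14 regulators none was called. Mlxipl, the carbohydrate response factor ChREBP, differed by -0.59 (adjusted p = 0.156).

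Set side by side, 1 member was called for diet in all 3 tissues with all libraries, Gpd2, which was higher in liver and lower in muscle and adipose tissue. Gpi1, Gapdh, Pkm and Gbe1 were lower in both muscle and adipose tissue, and Pgk1 in liver and muscle. A further 22 members were called in 1 tissue and 9 in none. Of the 34 members tested in all 3 tissues, 17.6% were called in 2 or 3 of them, beside 5.63% of the 11473 genes tested in all 3.

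Which members differ between strains on RC was asked next. In muscle 13 of 36 separated DBA/2J from C57Bl/6J (38.5% of all genes), 20 BALB/cJ from C57Bl/6J (44.2%) and 17 BALB/cJ from DBA/2J (42.9%). In liver the counts were 17, 15 and 10 of 35 (48.1%, 46.8% and 42.1%), none of them far above the share of all genes. GRCm38, the build named in the processing notes, is a C57BL/6J genome, so sequence differences of the other strains can enter these values.

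Strain differences in muscle included phosphorylase kinase and Gpi1. Phkg1 ran from 5.03 through 5.61 to 6.24 in BALB/cJ, below all C57Bl/6J (6.46 to 7.01) and DBA/2J animals (6.45 to 7.13), a log2 difference of -1.09 from C57Bl/6J (adjusted p = 3.27e-12). Phka1 (-0.50) and Gpd2 (-0.81) were also lower in BALB/cJ than in C57Bl/6J, beside 7 of 12 fast fibre markers. Gpi1 ran from 8.39 through 8.52 to 8.77 in DBA/2J, below all animals of C57Bl/6J (8.9 to 9.16) and BALB/cJ (8.97 to 9.22). DBA/2J had more Slc2a4 (median 9.35) than C57Bl/6J (9.09, difference 0.21) and BALB/cJ (9.06). Of 10 slow fibre markers 9 were higher for DBA/2J against C57Bl/6J (median 0.45), and 9 were lower for BALB/cJ against DBA/2J (median -0.61), and the part of fibre markers in these strain differences was not tested.

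In liver, Pgam1 ran from 5.78 through 5.99 to 6.04 in BALB/cJ, above all C57Bl/6J (4.95 to 5.48) and DBA/2J animals (5.02 to 5.41). The difference from C57Bl/6J was 0.74 (adjusted p = 1.49e-18), and Phkb was higher there by 0.49. Ldha was lower in DBA/2J (8.59 to 9.02) than in C57Bl/6J (9.24 to 9.74) without overlap, as were Eno1 (7.34 to 7.79 against 7.94 to 8.45) and Pygl (8.41 to 9.16 against 9.27 to 9.58). Pgam2 (3.27), Slc2a4 (1.67) and Pygm (1.34), isoforms of muscle, were higher in liver of DBA/2J than of C57Bl/6J, and 6 of 6 muscle markers were too. Those markers summed to 0.745 to 68.9 CPM in C57Bl/6J and 4.39 to 600 CPM in DBA/2J liver on RC, and their part was not tested.

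In adipose tissue 10 of 37 members separated DBA/2J from C57Bl/6J (41.7% of all genes), 2 BALB/cJ from C57Bl/6J (11.2%) and 6 BALB/cJ from DBA/2J (16.2%). Without the 2 libraries, which only add to the shared spread here, these were 13 (51.4%), 4 (16%) and 8 (24.8%). All 10 and all 13 were higher in DBA/2J, among them Aldoa (1.36), Pkm (0.85) and Pfkfb3 (1.28). In the same contrast 4 of 6 adipocyte markers were higher without the 2 libraries (1 of 6 with them, median 1.03 each), as were 4 of 5 brown adipocyte markers (median 2.52) and 3 of 5 erythroid markers (1 was lower), while 6 of 6 T cell markers were lower (median -3.79), and their part was not tested. B cell markers summed to a median of 15.5 CPM in DBA/2J and 1810 CPM in C57Bl/6J adipose tissue on RC, and with the B cell mean as a covariate 2 members were called with all libraries, Aldoa and Pkm (13.7% of all genes), and 6 without the 2 (4 higher, 2 lower, 20.9%). Of the strain pair counts over all libraries, the first was 17 without 2RC231. The second was 4 without 3HF201, and the third was 1 to 3 without any 1 of 7 animals (2RC200, 2RC201, 2RC228, 2RC229, 2RC230, 3RC202 and 3RC211).

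Some strain differences recurred across tissues on RC. The share of all genes that recurred is not given here, so recurrence is not read as a trait of the members. Pfkl and Tpi1 were higher in all 3 tissues of DBA/2J than of C57Bl/6J, and Pgam1 was higher in BALB/cJ than in C57Bl/6J in all 3. Gapdh and Eno1 were lower in DBA/2J and in BALB/cJ than in C57Bl/6J in both liver and muscle. Gpd1 and Pygl went in opposite directions, with DBA/2J below C57Bl/6J in liver and above it in adipose tissue. With the B cell mean as a covariate and all libraries, Pfkl, Tpi1, Gpd1 and Pygl were not called in adipose tissue for this strain pair.

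Levels on RC also differed between days for 5 of 36 members in muscle (5.92% of all genes) and 1 of 35 in liver (10.4%). In muscle, the 5 were Gapdh (-0.24), Eno3 (-0.25) and Tpi1 (-0.20), lower at day 13 than at day 5, and Gbe1 (0.20) and Ldhb (0.26), higher at day 33 than at day 5. The muscle count was 3 without any 1 of 5 RC animals (1RC251, 1RC228, 2RC228, 2RC229 and 3RC230) and 9 without 2RC231. In liver Gys2 was lower at day 13 than at day 5 (-0.39). That count was 0 without 2RC228 and 2 to 5 without any 1 of 18 others. In adipose tissue 0 of 37 differed (0.0242% of all genes, 3 unadjusted, 0 by voom, and 1 called without 2RC230).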

How the data were processed

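RNA of 216 samples (72 animals, 3 tissues) was used. The other 8 liver libraries of 4 animals, with lettered titles, were not analysed here. Per the labels, mRNA was made into stranded libraries and sequenced as single reads of 100 bases on a HiSeq 2500. STAR 2.5.3a, edgeR and GRCm38 are named in the submitters' processing notes, without roles. The authors deposited log2 CPM values, scaled per library, with a prior count of 0.25 reads in liver and 2 in muscle and adipose tissue, as recovered from the values. Whole reads could be recovered from these deposited values (100% within 0.05 reads, for values under 2000), and the resulting counts gave the total reads per library.

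Each tissue was fitted with limma-trend (limma 3.58.1, R 4.3.3) on 18 groups of strain, diet and day. Genes at log2 CPM of at least 0 in at least 4 animals were tested (liver 12611, muscle 13637, adipose tissue 16541). Adjusted p-values are Benjamini-Hochberg values over all genes of a tissue. Replicates are separate animals by the labels. Levels between genes are CPM per kb of exon length, with all annotated exons of a gene merged, which need not be the length of the transcript present. Alternatives were voom on the recovered reads, quantile normalization, a filter at the median level, fits of the compared groups alone, animal number ranges, a replicate block, marker covariates and leaving out each animal. Those on the 2 adipose libraries, on the 3 muscle libraries and on B cell marker classes were chosen after seeing the data.

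The members and the pathway and marker lists were chosen with earlier results of these data known. Per tissue the text names up to 8 members of smallest adjusted p for diet, up to 4 for strain and 3 for day differences, up to 3 within a strain, up to 4 per strain pair and 3 for days on RC, leading isoforms, and up to 4 genes per pathway list. All members could be named, so others appear by role. Near-identical copies in the tables were Eno1b in all 3 tissues and Aldoart1, Aldoart2 or Tpi-rs11 in muscle or adipose tissue. The fits were tested on simulated data.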

Additional observations from a re-analysis of the deposited data

Results flagged for a closer look

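The effect of HFD differed between strains, by limma's F test on the difference itself, for 1 member in liver, Gpd1 (adjusted p = 0.000169, beside 15.7% of all genes called), and for 4 of 36 in muscle (11.1%, beside 12% of all genes), Pfkfb1 (adjusted p = 0.000774), Eno3 (adjusted p = 0.0033), Pgk1 (adjusted p = 0.0102) and Tpi1 (adjusted p = 0.0119). It differed between days for Pfkfb3 in liver (adjusted p = 0.00229, beside 3.35% of all genes).

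The groups of Pfkfb3 and Gpd1 in liver, Pfkfb1 in muscle and Pkm in adipose tissue, whose values are given by strain and day, were screened for single animals. Of these 71 groups of 4 animals, 7 had 1 animal far from the other 3 (the gap over the range above Dixon's critical value), and chance alone flags about 1 in 20 groups. In liver, Pfkfb3 was highest at 5.96 in DBA/2J on RC at day 13 and at 3.89 in BALB/cJ on HFD at day 5, and lowest at 2.84 in BALB/cJ on RC at day 13. In muscle, Pfkfb1 was lowest at 4.43 in BALB/cJ on RC at day 13. In adipose tissue, Pkm was highest at 8.65 in C57Bl/6J on HFD at day 33, at 9.85 in DBA/2J on HFD at day 5 and at 9.78 in BALB/cJ on HFD at day 33. The last is library 3HF208, with endocrine pancreas transcripts.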

How the results depend on the processing

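Counts below are members called, and the cause of a change was not tested unless given. The share of all genes is not given beside them, so a changed count is not a result about the members in particular. Leaving out each animal gave, over all strains, 6 to 9 (liver), 16 to 20 (muscle) and 7 to 12 (adipose tissue). For single strains, in the order C57Bl/6J, DBA/2J, BALB/cJ, liver gave 1 to 3, 6 to 8 and 4 to 7, muscle 2 to 4, 10 to 16 and 15 to 19, and adipose tissue 0 to 0, 1 to 4 and 0 to 11. By strain and day the 3 tissues gave 19 to 27, 20 to 34 and 1 to 21, for differences between strains 1 to 2, 4 to 8 and 0 to 0, and for differences between days 1 to 2, 0 to 1 and 0 to 0. On RC it gave 15 to 18, 12 to 17 and 8 to 11 for the strain pairs in liver, 11 to 15, 17 to 21 and 16 to 19 in muscle, and 8 to 17, 2 to 4 and 1 to 8 in adipose tissue, and for days 0 to 5, 3 to 9 and 0 to 1. The adipose count by strain and day was 15, and 1 without the BALB/cJ day 33 animals 3HF208, 3RC208, 3RC209 or 3RC259.

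Voom gave 3 for adipose BALB/cJ against DBA/2J, 6 by strain and day and 1 in DBA/2J. Quantile normalization gave 5 for adipose BALB/cJ against C57Bl/6J, 1 in adipose C57Bl/6J, 5 in muscle C57Bl/6J, 2 and 4 for day and strain differences in liver, and 1 for day differences in muscle. The filter at the median level, with fewer genes tested, gave 10 for liver DBA/2J against C57Bl/6J. Fits of the compared groups alone, with fewer samples, gave 8 for adipose BALB/cJ against C57Bl/6J, 5 and 7 by strain and day in adipose tissue and muscle, 1 and 1 in adipose C57Bl/6J and DBA/2J, 5 and 3 for RC days in liver and muscle, 2 and 1 in liver BALB/cJ and C57Bl/6J, and 7 in muscle C57Bl/6J.

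The number range as a covariate gave 1 for adipose BALB/cJ against C57Bl/6J, 8 and 1 in adipose BALB/cJ and DBA/2J, 7 and 1 in liver BALB/cJ and C57Bl/6J, 2 each for RC days and day differences in liver, and 1 for RC days in muscle. Within the lower, middle and upper ranges, with fewer animals, the counts over all strains were 6, 7 and 1 in muscle, 0 and 3 in the last 2 in liver, and 0 and 0 in adipose tissue. There Pfkp (-0.027) and Pgk1 (0.087) in muscle and Pfkfb3 (0.526) in liver changed sign in the middle range, and Phkb (0.002), Phkg1 (0.029) and Pfkfb3 (0.117) in the upper.

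Same-numbered animals of both diets formed 20 pairs, in 8 of the 9 combinations of strain and day, so not all animals had a partner. The pairs' deviations correlated between -0.43 and 0.59 in liver (median 0.13, 12 of 20 over 0.1). The correlations ran from -0.85 to 0.76 in muscle (median 0, 7 over 0.1) and from -0.83 to 0.62 in adipose tissue (median -0.36, 4 over 0.1). Not all pairs exceeded 0.1, and the labels do not say what the number means, so the animals were not treated as paired. With the replicate block, the counts were 4 over all strains in muscle, 6 in its DBA/2J, 0 in BALB/cJ and 0 in C57Bl/6J, 5 by strain and day and 0 for strain differences. With the block, adipose tissue had 0 over all strains, in DBA/2J and by strain and day, and liver had 0 in C57Bl/6J and 2 each for strain and day differences.

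The fibre covariate gave 18 by strain and day and 8 in DBA/2J muscle. The left-out muscle library, included, gave 2 for RC days, 14 by strain and day, 1 for strain differences, 8 in BALB/cJ and 3 in DBA/2J. The B cell covariate gave, in adipose tissue, 15 over all strains, 14 in BALB/cJ, 6 in DBA/2J and 2 in C57Bl/6J, and 2, 6 and 3 for DBA/2J against C57Bl/6J, BALB/cJ against C57Bl/6J and BALB/cJ against DBA/2J. Leaving out the 2 endocrine libraries gave 4 by strain and day and 4 for BALB/cJ against C57Bl/6J. Both together gave 20 over all strains, 4 and 9 in C57Bl/6J and DBA/2J, 10 for BALB/cJ against C57Bl/6J and 6 for DBA/2J against C57Bl/6J, where Ugp2 changed sign (-0.052). Libraries with high B cell markers gave 0. Depth limits Slc2a2 and Gys2 in those muscle libraries where they are near 0 reads. In others on RC they reached log2 CPM of 4.6 and 4.17, and the part of hepatocyte transcripts in these levels was not tested.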
